A study of Homo sapiens with 18 samples.

Results

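The IL-6 family cytokine receptors were followed here as 7 genes, IL6R, IL11RA, CNTFR, IL6ST, LIFR, OSMR and IL27RA, among 19775 genes measured. They were chosen by name, and every probe set that the array's annotation gives to 1 of these symbols alone was taken, 24 of 41091 such probe sets. RNA levels were measured on 18 Affymetrix U133 Plus 2.0 arrays, 3 in each of 6 groups. DU145 cells received siRNA against Stat3, siRNA against Stat5a/b or a scramble siRNA, CWR22Rv1 cells received the same 3, and all were harvested 48 h after transfection. DU145 is an established human prostate cancer line that grew from a brain metastasis, and CWR22Rv1 is one that grew from a relapsed xenograft. Each line stands for 1 tumour, and all groups, the scramble groups too, carry a transfected siRNA. Separate cultures are not stated for the triplicates, so p-values measure the spread between arrays, which may be technical.

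Cytokines of the IL-6 family act through gp130, the signal-transducing chain encoded by IL6ST. Some ligands first bind an alpha chain that lacks signalling ability of its own, such as the IL-6 receptor, and then recruit gp130. Others, such as leukaemia inhibitory factor and oncostatin M, join gp130 with a second signalling chain. Janus kinases bound to these chains then phosphorylate STAT proteins, foremost STAT3, which enter the nucleus. In prostate cancer, IL-6 signalling has been studied in growth and in androgen independence.

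The comparisons asked which receptor transcripts differ after siRNA against Stat3 or Stat5a/b and between the untargeted lines. Stat3 siRNA left STAT3 at 32.6% of scramble in DU145 and at 45.7% in CWR22Rv1. Stat5a/b siRNA left STAT5B at 39.1% of scramble in DU145 and at 53.4% in CWR22Rv1, while STAT5A did not pass the test in either line (log2 changes -0.30 and -0.34, limma adjusted p = 0.101 and 0.146). The epithelial markers KRT8, KRT18 and EPCAM averaged 11.4 to 11.5 in CWR22Rv1 arrays and 11.3 to 11.8 in DU145 arrays on the log2 scale. Markers of luminal prostate cells averaged 8.58 to 8.82 in CWR22Rv1 arrays and 4.81 to 5.25 in DU145 arrays. Leukocyte markers averaged 4.29 to 4.80 over all arrays, with 0 of the 4 measured above the median of probe sets in 5 groups and 1 of 4 in the DU145 scramble group. Fibroblast markers averaged 5.43 to 5.74 in CWR22Rv1 arrays and 4.29 to 4.55 in DU145 arrays, and LUM, at 8.12 in CWR22Rv1 and 2.56 in DU145 scramble arrays, carried that gap, as the other 4 differed by at most 0.29. With siRNA, CD14 fell in DU145 (-1.09 for Stat3, -0.96 for Stat5a/b), EPCAM fell there too (-0.49 and -0.40), LUM fell in CWR22Rv1 for Stat3 (-0.66, the highest adjusted p of these 5 being 0.0423). Their part in the receptor changes was not tested.

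The promoter windows of the 2 receptor genes that changed most with an siRNA are shown first, because STAT dimers are known to bind the palindromic letters TTCNNNGAA. The letters read the same on both strands, so 1 search covers both. Sequences and coordinates come from RefSeq, assembly GRCh38.p14, and each shows the 250 bases before an annotated start, 5′ to 3′ in the direction of transcription, with a match in capitals. The first pair lies before 2 of the 3 LIFR starts listed (minus strand, chr5:38557468-38557717 and chr5:38595406-38595655), and the last before the IL6R start (plus strand, chr1:154405093-154405342).
LIFR window A: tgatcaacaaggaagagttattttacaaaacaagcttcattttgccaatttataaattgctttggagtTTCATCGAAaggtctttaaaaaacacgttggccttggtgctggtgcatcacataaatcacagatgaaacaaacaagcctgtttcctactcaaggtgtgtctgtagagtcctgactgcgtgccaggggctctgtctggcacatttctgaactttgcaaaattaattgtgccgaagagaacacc
LIFR window B: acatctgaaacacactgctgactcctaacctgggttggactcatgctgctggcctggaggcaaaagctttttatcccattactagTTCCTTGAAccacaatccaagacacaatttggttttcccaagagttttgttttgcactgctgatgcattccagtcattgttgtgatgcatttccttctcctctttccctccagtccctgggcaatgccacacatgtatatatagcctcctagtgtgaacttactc
IL6R window: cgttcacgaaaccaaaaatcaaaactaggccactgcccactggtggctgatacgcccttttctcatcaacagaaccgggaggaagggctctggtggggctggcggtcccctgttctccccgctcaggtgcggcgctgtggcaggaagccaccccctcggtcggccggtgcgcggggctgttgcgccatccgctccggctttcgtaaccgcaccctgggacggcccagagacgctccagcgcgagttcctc
The match began 182 bases before the start in window A and 165 bases before the start in window B. Among the 10 windows listed for the 7 genes, each 300 bases long, 2 held a match, both of them LIFR windows. Over all 35116 windows of that length 7.66% held one. A match is a stretch of letters and not a measured binding site, and binding was not measured.

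The representative probe set of a gene was the one with the highest mean over all arrays, and a gene was called changed at a limma adjusted p under 0.05 over all 19775 genes. In DU145, Stat3 siRNA raised 1 receptor gene, IL6R, and lowered 2, LIFR and OSMR, where 15.8% of all genes were called, 7.51% as higher and 8.25% as lower. The Stat5a/b siRNA raised IL6R and lowered OSMR in that line, where 24.3% of all genes were called, 11.8% as higher and 12.5% as lower. In CWR22Rv1, Stat3 siRNA raised none and lowered LIFR and OSMR, where 4.77% were called, 2.75% as higher and 2.02% as lower. IL6R alone was raised there by Stat5a/b siRNA and no receptor gene was lowered, where 6.46% were called, 3.16% as higher and 3.3% as lower. The 4 comparisons use 2 scramble groups, so both siRNA effects of a line share their control arrays. The median receptor gene changed by -0.12 and -0.18 in DU145 with Stat3 and Stat5a/b siRNA, and by -0.21 and 0.081 in CWR22Rv1, while the median of all genes lay between -0.0042 and 0.024. Changes are on the log2 scale, given with the standard error of the fit. A lower signal from bulk RNA cannot tell fewer cells that express a gene from less of its RNA per cell.

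**Figure D1:**
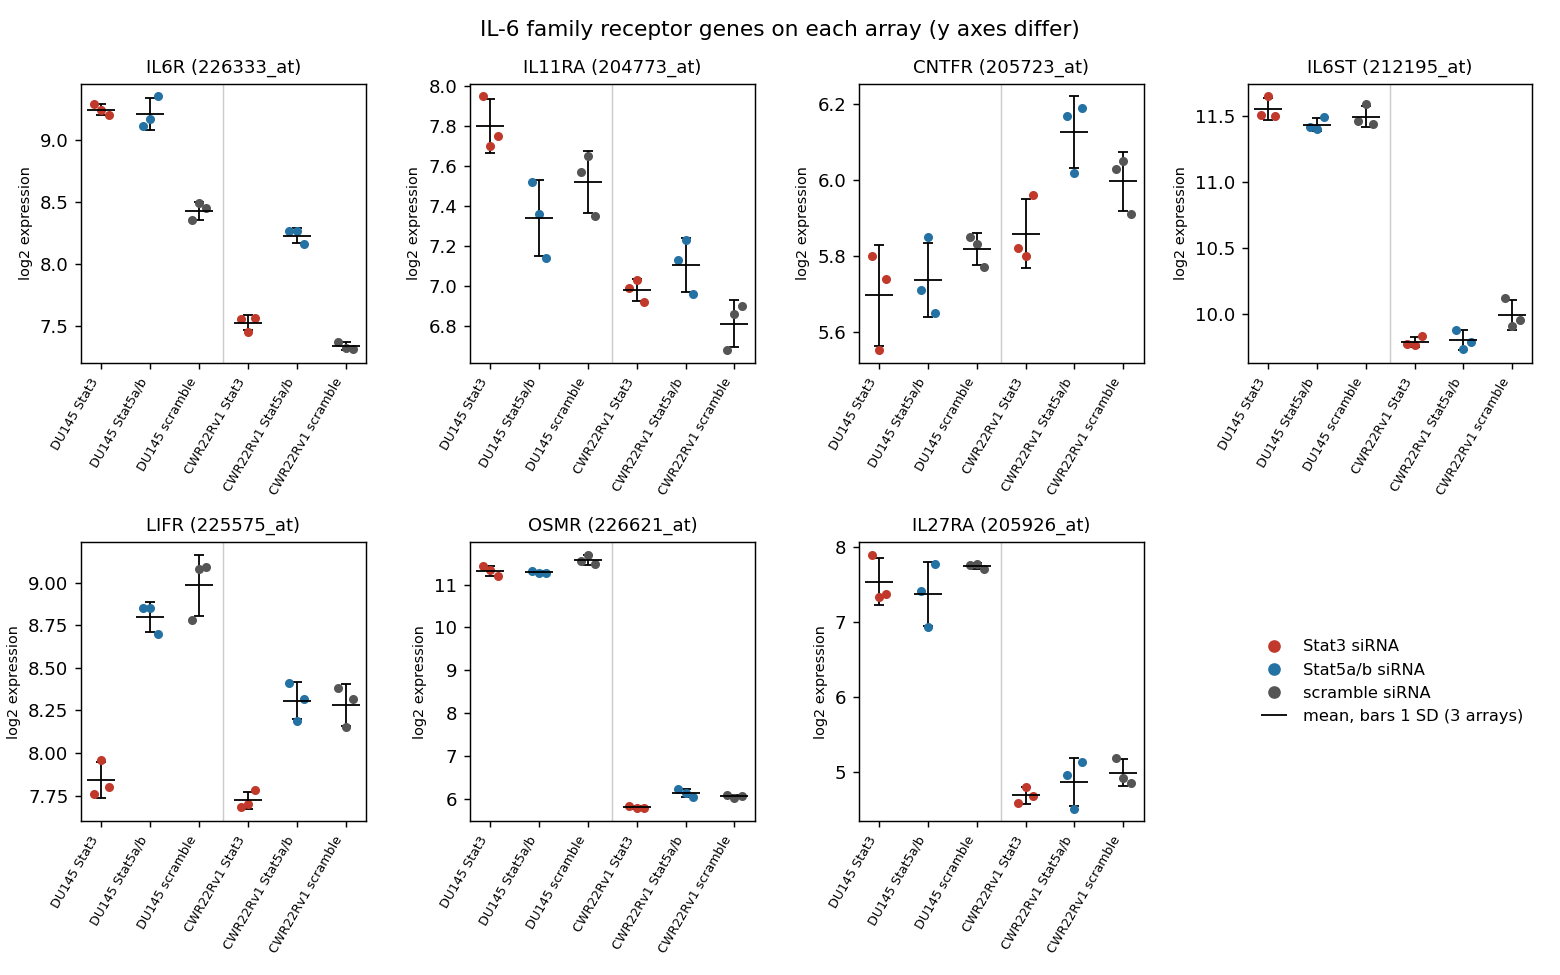
Log2 expression of the representative probe set of each receptor gene on every array, by group, with the mean and 1 SD of 3 arrays (y axes differ between genes). IL6R stood higher in DU145 with either siRNA and in CWR22Rv1 with Stat5a/b siRNA, and LIFR stood lower with Stat3 siRNA in both lines.

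IL6R encodes the alpha chain that binds IL-6 and hands it to gp130. It is read by 226333_at and lies at chr1:154405343-154469450 (GRCh38.p14, as for all genes below). Its level in DU145 was 9.29, 9.24 and 9.20 with Stat3 siRNA and 9.11, 9.17 and 9.35 with Stat5a/b siRNA, against 8.35, 8.49 and 8.45 with scramble siRNA. All 6 targeted arrays lay above all 3 scramble arrays, and the targeted groups overlapped each other. The change was 0.82 ± 0.068 with Stat3 siRNA (176% of scramble, limma adjusted p = 5.6e-07) and 0.78 ± 0.068 with Stat5a/b siRNA (adjusted p = 6.13e-07). In DU145 the Stat5a/b siRNA arrays differed from the Stat3 siRNA arrays by -0.035 (95% interval -0.18 to 0.11, adjusted p = 0.767), although the mean over the IL6R probe sets was lower there (-0.34, adjusted p = 0.0271).

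In CWR22Rv1, the IL6R level was 7.55, 7.45 and 7.56 with Stat3 siRNA and 8.26, 8.26 and 8.16 with Stat5a/b siRNA, against 7.37, 7.32 and 7.31 with scramble siRNA. The 3 groups did not overlap, and the Stat5a/b siRNA arrays stood far above the other groups. Stat5a/b siRNA raised IL6R by 0.89 ± 0.068, a 1.86-fold difference (adjusted p = 8.79e-07) and number 16 in size among the increases of all genes. With Stat3 siRNA the difference was 0.19 ± 0.068 and did not pass the test (adjusted p = 0.137), although it did with array weights (adjusted p = 0.0106) and with CWR22Rv1 arrays fitted alone (adjusted p = 0.0472). Stat5a/b siRNA arrays exceeded Stat3 siRNA arrays by 0.70 in this line (adjusted p = 4.85e-06).

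The Stat3 siRNA effect on IL6R was lower in CWR22Rv1 than in DU145 by 0.63 on the log2 scale (-0.63 ± 0.095, adjusted p = 0.00301), in a test that called 3% of all genes, 1.82% as higher and 1.18% as lower in CWR22Rv1. The residual STAT3 share also differed, at 45.7% in CWR22Rv1 and 32.6% in DU145, and its part in the IL6R difference was not tested. For Stat5a/b siRNA the line difference of the IL6R effect was 0.11 (95% interval -0.091 to 0.31, adjusted p = 0.511).

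Over all 24 receptor probe sets, tested among 41091, 4 rose and 5 fell with Stat3 siRNA in DU145, where 11.3% of all probe sets were called, 5.39% as higher and 5.91% as lower. In the same line 2 rose and 5 fell with Stat5a/b siRNA, where 19.1% were called, 8.84% as higher and 10.3% as lower. In CWR22Rv1 none rose and 2 fell with Stat3 siRNA, where 2.72% were called, 1.62% as higher and 1.1% as lower, and 2 rose and none fell with Stat5a/b siRNA, where 4.26% were called, 1.75% as higher and 2.5% as lower. Of the 24 probe sets, 9 averaged below 5.66, the median probe set, over all arrays, and how far they lie above background is unknown. All 3 IL6R probe sets rose with Stat3 siRNA in DU145, although 217489_s_at was among these dim probe sets (mean 4.07). Probe set 205945_at changed by 1.03 (adjusted p = 0.00116) and 217489_s_at by 0.73 (adjusted p = 0.0309). With Stat5a/b siRNA in DU145 these probe sets gave 0.39 and 0.38 (adjusted p = 0.156 and 0.234), so that 226333_at alone was called there, while the mean over the 3 probe sets was called too (0.52, adjusted p = 0.00166). In CWR22Rv1, 205945_at rose by 0.86 with Stat5a/b siRNA (adjusted p = 0.0112), while 217489_s_at gave 0.036 and was not called.

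IL11RA (204773_at, chr9:34652185-34661902) encodes the alpha chain for IL-11. Its level in DU145 was 7.95, 7.70 and 7.75 with Stat3 siRNA and 7.52, 7.36 and 7.14 with Stat5a/b siRNA, against 7.57, 7.65 and 7.35 with scramble siRNA. The Stat3 siRNA arrays stood apart above scramble, yet the change of 0.28 ± 0.11 did not pass the test (adjusted p = 0.0903) unless the replicate number was a block (adjusted p = 0.0433), and the Stat5a/b siRNA arrays overlapped scramble. The siRNAs differed from each other, with Stat5a/b siRNA arrays below Stat3 siRNA arrays by 0.46 on the log2 scale (-0.46 ± 0.11, adjusted p = 0.00508).

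In CWR22Rv1 arrays IL11RA read 6.99, 7.03 and 6.92 with Stat3 siRNA and 7.13, 7.23 and 6.96 with Stat5a/b siRNA, against 6.68, 6.86 and 6.90 with scramble siRNA. All targeted arrays exceeded the scramble arrays, by 0.17 and 0.29 on average, and neither change passed the test (adjusted p = 0.485 and 0.135). With array weights, and with CWR22Rv1 arrays fitted alone, the Stat5a/b siRNA change was called (adjusted p = 0.0285 and 0.0485). The line difference of the Stat5a/b siRNA effect was 0.47 (95% interval 0.15 to 0.79, adjusted p = 0.0536). It was called without DU145 scramble replicate 3 (adjusted p = 0.0237), DU145 Stat5a/b siRNA replicate 1 (0.0264) or CWR22Rv1 Stat5a/b siRNA replicate 3 (0.0386), and on the mean of the probe sets it was 0.22 (adjusted p = 0.387). The second IL11RA probe set, 1552646_at, was called in none of the 4 comparisons with scramble siRNA and read in the other direction in CWR22Rv1 (-0.14 with each siRNA). The mean over both probe sets changed there by 0.016 and 0.075 (adjusted p = 0.974 and 0.804).

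CNTFR (205723_at, chr9:34551433-34590852) encodes the alpha chain for ciliary neurotrophic factor, best known from neurons, and has 1 probe set. CNTFR averaged 5.87 over all arrays, close to 5.66, the median probe set, and how far it lies above background is unknown. The DU145 arrays lay between 5.55 and 5.85 in every group, and the groups overlapped. In CWR22Rv1 the level was 5.82, 5.80 and 5.96 with Stat3 siRNA, 6.17, 6.02 and 6.19 with Stat5a/b siRNA and 6.03, 6.05 and 5.91 with scramble siRNA. Neither siRNA differed from scramble by the test in either line (adjusted p from 0.355 to 0.499). The Stat5a/b siRNA arrays exceeded the Stat3 siRNA arrays in CWR22Rv1 by 0.27 (adjusted p = 0.0392). That call was lost without Stat3 siRNA replicate 1 (adjusted p = 0.13) or 2 (0.138), and without Stat5a/b siRNA replicate 1 (0.117) or 3 (0.148).

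IL6ST (212195_at, chr5:55935095-55994963) encodes gp130 itself. In DU145 its level was 11.51, 11.65 and 11.50 with Stat3 siRNA and 11.42, 11.40 and 11.49 with Stat5a/b siRNA, against 11.46, 11.59 and 11.44 with scramble siRNA. The 3 groups overlapped, and the changes were 0.059 (95% interval -0.090 to 0.21, adjusted p = 0.665) and -0.061 (-0.21 to 0.088, adjusted p = 0.581). CWR22Rv1 arrays read 9.77, 9.76 and 9.83 with Stat3 siRNA and 9.88, 9.73 and 9.79 with Stat5a/b siRNA, against 10.12, 9.91 and 9.95 with scramble siRNA.

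Here both siRNA groups of CWR22Rv1 lay below the scramble group without overlap, by -0.21 and -0.19, and neither difference passed the test (adjusted p = 0.116 and 0.146). Both were called with array weights (adjusted p = 0.0233 and 0.0492) and with a mean-variance trend (0.034 and 0.0469). Of the 7 IL6ST probe sets, 1 was called higher with Stat3 siRNA in DU145 (234474_x_at, 0.24, adjusted p = 0.0463) and 1 lower with Stat5a/b siRNA there (204863_s_at, -0.65, adjusted p = 0.0391). Both averaged below the median probe set (2.98 and 5.55 over all arrays), and how far they lie above background is unknown. RefSeq lists a gp130 pseudogene, IL6STP1, on chromosome 17, and whether any probe set reads it was not tested.

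LIFR (225575_at, chr5:38474668-38608403) encodes the chain that pairs with gp130 for leukaemia inhibitory factor, and also serves other family members. In DU145 its level was 7.76, 7.96 and 7.80 with Stat3 siRNA and 8.85, 8.85 and 8.70 with Stat5a/b siRNA, against 8.78, 9.08 and 9.09 with scramble siRNA. The Stat3 siRNA arrays lay below every other DU145 array, and the Stat5a/b siRNA arrays overlapped scramble. With Stat3 siRNA LIFR fell to 45.2% of scramble (-1.15 ± 0.093, adjusted p = 4.58e-07), number 23 in size among the falls of all genes. With Stat5a/b siRNA the change was -0.19 ± 0.093 (adjusted p = 0.167). This fall was called without scramble replicate 1 (-0.29, adjusted p = 0.0312) and on the mean of the LIFR probe sets (-0.22, adjusted p = 0.045).

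LIFR in CWR22Rv1 read 7.68, 7.70 and 7.78 with Stat3 siRNA and 8.41, 8.19 and 8.32 with Stat5a/b siRNA, against 8.38, 8.15 and 8.32 with scramble siRNA. Again the Stat3 siRNA arrays lay below all others, while the remaining groups overlapped. Stat3 siRNA lowered LIFR to 67.8% of scramble (-0.56 ± 0.093, adjusted p = 0.00208), and Stat5a/b siRNA gave 0.026 (95% interval -0.17 to 0.22, adjusted p = 0.936). Stat5a/b siRNA arrays exceeded Stat3 siRNA arrays by 0.96 in DU145 (adjusted p = 1.66e-06) and by 0.59 in CWR22Rv1 (adjusted p = 0.000575).

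The fall of LIFR with Stat3 siRNA was smaller in CWR22Rv1 than in DU145, with a difference of 0.59 ± 0.13 (adjusted p = 0.0251). This call was lost without any 1 of 7 of the 12 arrays, namely DU145 scramble replicate 2 (adjusted p = 0.059) or 3 (0.0513), DU145 Stat3 siRNA replicate 3 (0.0534), CWR22Rv1 scramble replicate 2 (0.068), or CWR22Rv1 Stat3 siRNA replicate 1 (0.0523), 2 (0.0514) or 3 (0.0629). It was lost also with quantile normalisation (0.52, adjusted p = 0.0542) and on the mean of the LIFR probe sets (0.29, adjusted p = 0.174). For Stat5a/b siRNA the line difference was 0.21 (adjusted p = 0.34).

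The 5 LIFR probe sets did not move together. With Stat3 siRNA, 225575_at and 225571_at fell in both lines, the second by 1.26 in DU145 (-1.26, adjusted p = 2.01e-05) and by 0.65 in CWR22Rv1 (-0.65, adjusted p = 0.022). Per array, 225571_at read 4.69, 4.73 and 4.29 with Stat3 siRNA and 5.64, 6.08 and 5.78 with scramble siRNA in DU145. The remaining 3 changed by -0.25 to -0.012 in DU145 and by -0.083 to -0.018 in CWR22Rv1, and none was called. With Stat5a/b siRNA in DU145 a different pattern appeared: 227771_at and 205876_at were lower (-0.47 and -0.54, adjusted p = 0.000327 and 0.0363) and 229185_at was higher (0.38, adjusted p = 0.0387).

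The mean over all 5 LIFR probe sets therefore changed less with Stat3 siRNA, by -0.57 in DU145 (adjusted p = 5.88e-05) and by -0.27 in CWR22Rv1, where it was no longer called (adjusted p = 0.0527). On that mean the Stat5a/b siRNA arrays exceeded the Stat3 siRNA arrays by 0.35 in DU145 (adjusted p = 0.00292) and by 0.14 in CWR22Rv1 (adjusted p = 0.266). In this comparison in DU145, 3 of the 5 probe sets were called higher and 1 lower, with the lowest change at -0.31. Which transcripts each probe set reads was not tested.

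**Figure D2:**
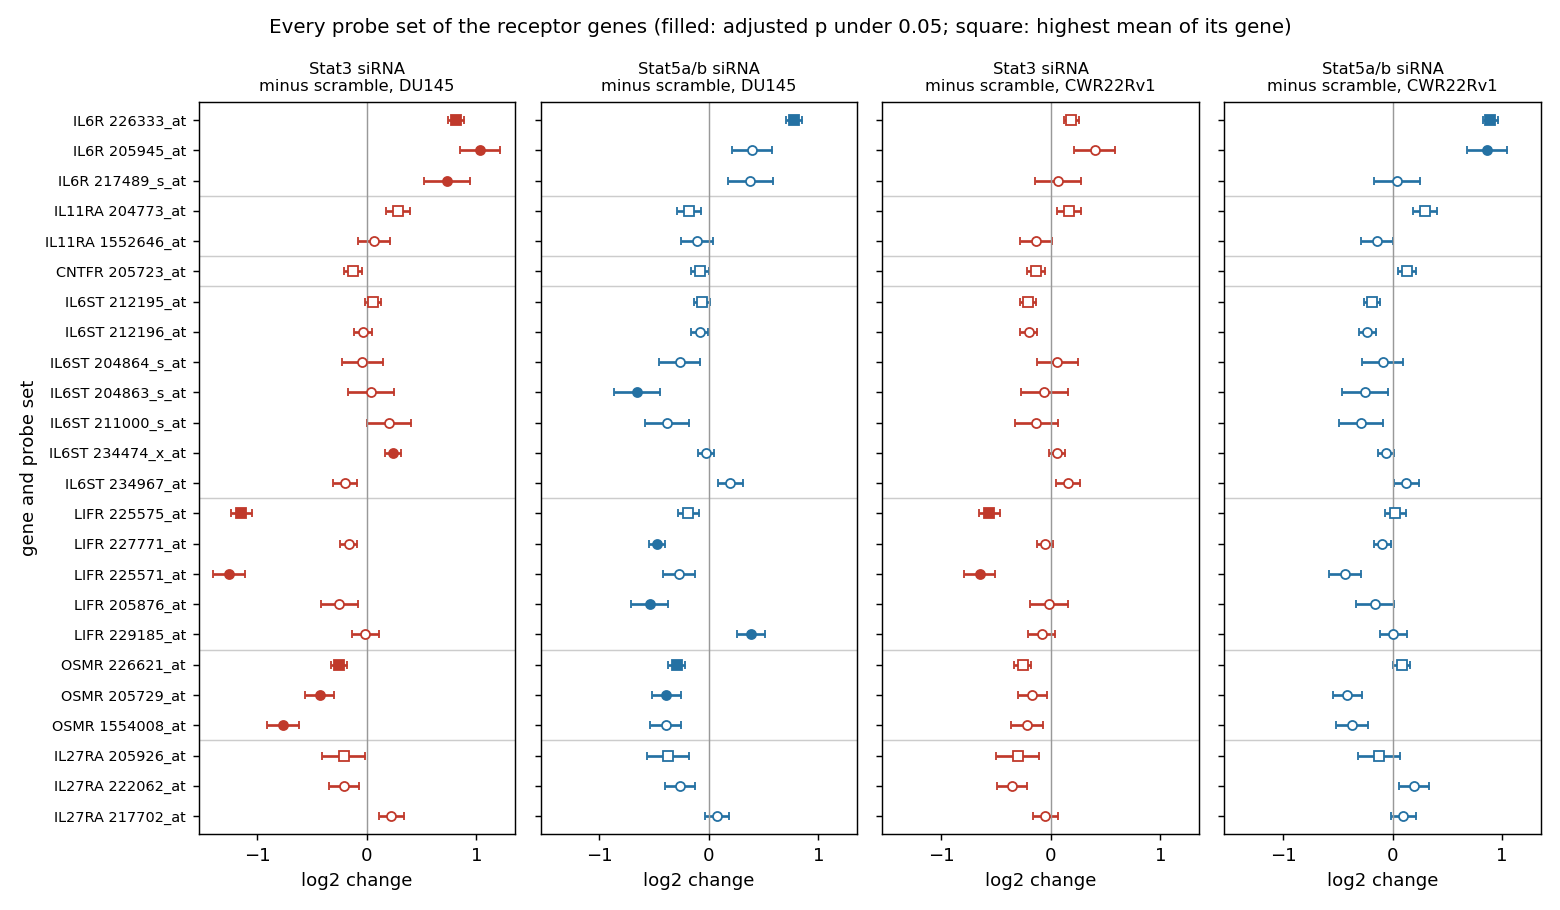
Log2 change of every probe set of the 7 genes in the 4 comparisons with scramble siRNA, with standard errors, where filled points have an adjusted p under 0.05 over all probe sets and squares mark the representative probe set. All 3 IL6R probe sets were filled with Stat3 siRNA in DU145, and 2 of 5 LIFR probe sets were filled with Stat3 siRNA in both lines. Of all 24 probe sets, 9 averaged below the median probe set.

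OSMR (226621_at, chr5:38846012-38945579) encodes the chain that joins gp130 in the type II oncostatin M receptor. In DU145 its level was 11.43, 11.33 and 11.20 with Stat3 siRNA and 11.32, 11.28 and 11.26 with Stat5a/b siRNA, against 11.56, 11.70 and 11.47 with scramble siRNA. All targeted arrays lay below all scramble arrays. OSMR fell by 0.26 with Stat3 siRNA (-0.26 ± 0.070, adjusted p = 0.0194) and by 0.29 with Stat5a/b siRNA (-0.29 ± 0.070, adjusted p = 0.00567). The Stat3 siRNA call was lost without scramble replicate 2 (-0.19, adjusted p = 0.0997) or Stat3 siRNA replicate 3 (-0.20, adjusted p = 0.093), and both calls were lost with DU145 arrays fitted alone (adjusted p = 0.123 and 0.0541).

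The other 2 OSMR probe sets also fell with Stat3 siRNA in DU145, 205729_at by 0.43 (-0.43, adjusted p = 0.0425) and 1554008_at by 0.77 (-0.77, adjusted p = 0.00187). The mean over the 3 gave -0.49 (adjusted p = 0.000505) with Stat3 siRNA and -0.36 (adjusted p = 0.00345) with Stat5a/b siRNA.

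OSMR in CWR22Rv1 read 5.83, 5.78 and 5.79 with Stat3 siRNA and 6.23, 6.13 and 6.05 with Stat5a/b siRNA, against 6.08, 6.03 and 6.07 with scramble siRNA. The Stat3 siRNA arrays lay below the other groups, which overlapped. The change with Stat3 siRNA was -0.26 ± 0.070 (adjusted p = 0.0475), and the call was lost without any 1 of the 6 arrays compared (adjusted p from 0.1 to 0.149). These values lie close to 5.66, the median probe set, and how far they lie above background is unknown. With Stat5a/b siRNA the change was 0.081 (95% interval -0.068 to 0.23, adjusted p = 0.646), while the other probe sets gave -0.41 and -0.37 (adjusted p = 0.0976 and 0.203).

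The Stat5a/b siRNA effect on OSMR was higher in CWR22Rv1 than in DU145 by 0.37 ± 0.10 (adjusted p = 0.0217), in a test that called 11.9% of all genes, 6.75% as higher and 5.17% as lower. It was lost without DU145 scramble replicate 2 (adjusted p = 0.057), CWR22Rv1 scramble replicate 2 (0.0518) or CWR22Rv1 Stat5a/b siRNA replicate 1 (0.061), and on the mean of the probe sets it was 0.12 (adjusted p = 0.559). The residual STAT5B share also differed, at 53.4% in CWR22Rv1 and 39.1% in DU145, and its part in the OSMR difference was not tested. The Stat3 siRNA effect on OSMR differed between the lines by less than 0.001 in size on the representative probe set (95% interval -0.21 to 0.21). On the mean of the probe sets it differed by 0.27 (adjusted p = 0.253), and single probe sets reached 0.55, with none called. The CWR22Rv1 values lie close to the median probe set, so whether the effects are equal is not known.

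IL27RA (205926_at, chr19:14031762-14053218) encodes the chain that pairs with gp130 for IL-27 and is best known from T cells. In DU145 its level was 7.90, 7.33 and 7.38 with Stat3 siRNA and 7.42, 6.93 and 7.78 with Stat5a/b siRNA, against 7.76, 7.78 and 7.71 with scramble siRNA. The targeted arrays were widely spread and overlapped scramble. CWR22Rv1 arrays read 4.58, 4.80 and 4.68 with Stat3 siRNA and 4.96, 4.51 and 5.13 with Stat5a/b siRNA, against 5.19, 4.92 and 4.85 with scramble siRNA.

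The Stat3 siRNA arrays of CWR22Rv1 lay below scramble without overlap, and the Stat5a/b siRNA arrays overlapped it. Neither siRNA changed IL27RA by the test in either line (adjusted p from 0.19 to 0.833). In DU145 the Stat5a/b siRNA change of -0.37 was called without Stat5a/b siRNA replicate 3 (-0.57, adjusted p = 0.0415). None of the 3 IL27RA probe sets was called in the 4 comparisons with scramble siRNA.

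**Figure D3:**
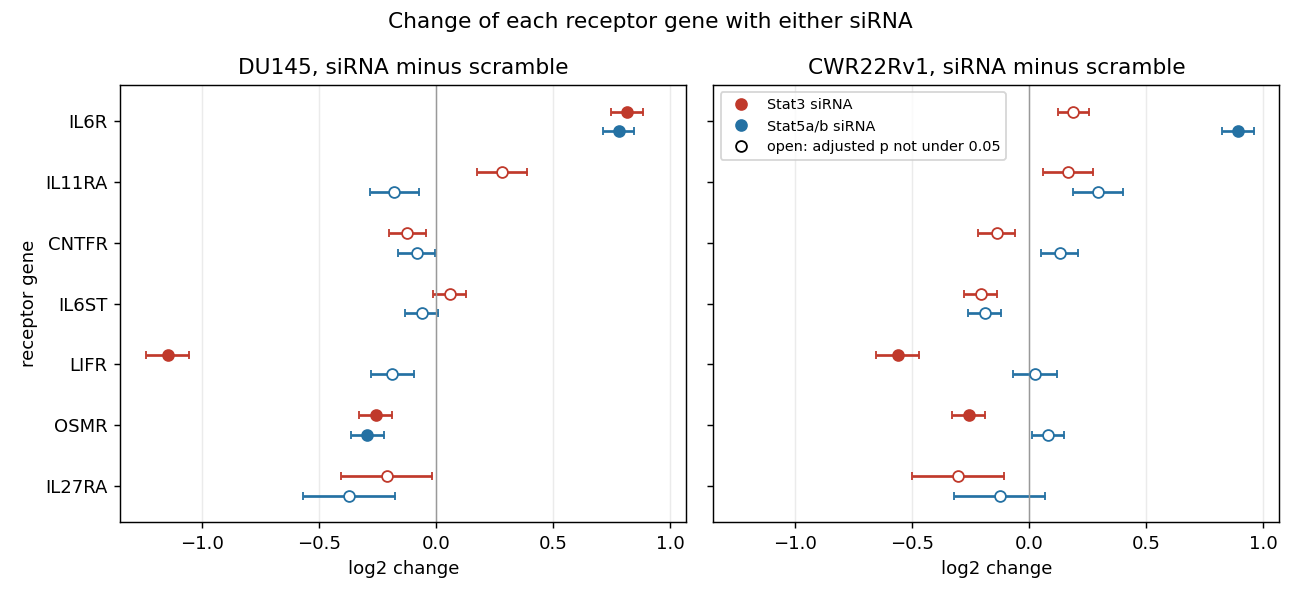
Log2 change of each receptor gene with Stat3 siRNA (red) and Stat5a/b siRNA (blue) against scramble siRNA in DU145 (left) and CWR22Rv1 (right), with standard errors, where filled points have an adjusted p under 0.05. IL6R lies near 0.8 to 0.9 in 3 of the 4 comparisons, and LIFR lies below 0 with Stat3 siRNA in both lines.

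Directly between the siRNAs, Stat5a/b siRNA arrays of DU145 were higher than Stat3 siRNA arrays for LIFR and lower for IL11RA, where 22.1% of all genes were called, 11% as higher and 11.2% as lower. In CWR22Rv1, IL6R, LIFR, OSMR and CNTFR were higher with Stat5a/b siRNA than with Stat3 siRNA and none was lower, where 10.8% were called, 4.7% as higher and 6.05% as lower. OSMR differed there by 0.34 (adjusted p = 0.00468), but on the mean of its 3 probe sets by -0.020 (adjusted p = 0.91). Array groups did not overlap for 3 receptor genes in DU145 and 4 in CWR22Rv1, against 30.7% and 36.8% of all genes.

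Against scramble siRNA the array groups did not overlap for 4 of the 7 genes with Stat3 siRNA and 2 with Stat5a/b siRNA in DU145, where 26.2% and 34.4% of all genes were apart. In CWR22Rv1 they did not overlap for 6 and 3 of the 7 genes, where 32.3% and 31.1% of all genes were apart.

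In CWR22Rv1 scramble arrays, compared with DU145 scramble arrays, 6 of the 7 receptor genes were lower and none was higher, where 56.9% of all genes were called, 30% as higher and 27% as lower. Of the 24 probe sets 1 was higher and 18 were lower, where 53.3% of all probe sets were called, 27.1% as higher and 26.1% as lower. The median receptor gene differed by -1.09 and the median of all genes by 0.033. All 7 were apart between the lines, as were 63.5% of all genes.

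OSMR showed the largest gap, 6.08, 6.03 and 6.07 in CWR22Rv1 against 11.56, 11.70 and 11.47 in DU145. This put CWR22Rv1 at 2.18% of DU145, a 45.9-fold difference (-5.52 ± 0.070, adjusted p = 1.13e-18). Its other probe sets gave -5.89 and -2.75, so the size of the gap depends on the probe set.

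IL27RA was at 14.8% of DU145 in CWR22Rv1 by its representative probe set (-2.76, adjusted p = 1.64e-09) and differed by -5.39 on 222062_at and 0.18 on 217702_at, of which the last was not called. Its CWR22Rv1 scramble arrays lay below the median probe set, and how far they lie above background is unknown. IL6ST differed by -1.50 (adjusted p = 6.18e-12), and 6 of its 7 probe sets were lower in CWR22Rv1. IL6R differed by -1.09 (adjusted p = 2.67e-10), IL11RA by -0.71 (adjusted p = 1.84e-05) and LIFR by -0.70 (adjusted p = 4.17e-06). CNTFR was the exception at 0.18 and was not called (adjusted p = 0.0679), although it was without CWR22Rv1 scramble replicate 3 (0.22, adjusted p = 0.0463). Its level lay close to the median probe set in both lines. The LIFR probe set 229185_at, at 0.36 (adjusted p = 0.0208), was the one called higher in CWR22Rv1. It averaged 4.28 over all arrays, below the median probe set.

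Over the 6 groups, the order of IL6R ran from DU145 Stat3 and Stat5a/b siRNA, which overlapped, through DU145 scramble, CWR22Rv1 Stat5a/b siRNA and CWR22Rv1 Stat3 siRNA to CWR22Rv1 scramble. LIFR ran from DU145 scramble and DU145 Stat5a/b siRNA, which overlapped, through CWR22Rv1 Stat5a/b siRNA and CWR22Rv1 scramble, which overlapped, to the Stat3 siRNA groups of DU145 and CWR22Rv1, which overlapped. For IL6ST, OSMR and IL27RA every DU145 group lay above every CWR22Rv1 group.

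The surrounding pathway was read from lists of its known parts. Of 8 measured ligands, none was called with Stat3 siRNA in either line or with Stat5a/b siRNA in CWR22Rv1, while Stat5a/b siRNA lowered 1 in DU145, where 12.5% of all genes were lower. That ligand was LIF, leukaemia inhibitory factor itself, at 7.83, 7.84 and 8.25 with Stat5a/b siRNA against 8.89, 8.69 and 8.59 with scramble siRNA (-0.75 ± 0.22, adjusted p = 0.0199). Between the scramble groups 4 ligands were lower in CWR22Rv1 and none was higher, where 27% of all genes were lower and 30% higher. LIF differed by -4.15 (adjusted p = 3.53e-11), and IL6, named after its values were seen because it is the family's founding ligand, by -2.20 (adjusted p = 9.3e-11). In CWR22Rv1 scramble arrays they averaged 4.57 and 4.51, below the median probe set (5.66), and how far they lie above background is unknown. CNTF, EBI3, CTF1 and OSM averaged 3.31, 4.45, 5.08 and 5.38 in DU145 and 3.31, 4.01, 4.71 and 5.57 in CWR22Rv1 scramble arrays. These ligands too lay below the median probe set, so the lack of a call with an siRNA says little about them.

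Among 7 related receptors, CRLF3, an orphan cytokine receptor-like protein, fell with Stat5a/b siRNA in both lines. Its level in CWR22Rv1 was 9.38, 9.35 and 9.35 with Stat5a/b siRNA against 9.86, 9.84 and 9.90 with scramble siRNA (-0.51, adjusted p = 5.24e-05), and in DU145 the change was -0.40 (adjusted p = 0.000124). IL31RA, which pairs with the OSMR chain to bind IL-31, fell in DU145 with Stat5a/b siRNA (-0.47, adjusted p = 0.0353). Like OSMR it was far lower in CWR22Rv1 than in DU145 scramble arrays (-4.30, adjusted p = 1.82e-13). IL31RA averaged 3.71 in CWR22Rv1 scramble arrays, below the median probe set (5.66), and how far that lies above background is unknown. The other 5 related receptors were not called with either siRNA or between the lines. Of these, LEPR, IL12RB2 and IL23R averaged 3.09, 2.83 and 3.29 in DU145 and 3.27, 2.72 and 3.44 in CWR22Rv1 scramble arrays. They lay far below the median probe set, so the lack of a call says little about them. CSF3R and IL12RB1 lay close to it (5.95 and 5.67 in DU145 scramble arrays). The shares of all genes called lower were 12.5% in DU145 and 3.3% in CWR22Rv1 after Stat5a/b siRNA, and 27% between the lines.

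JAK1, a kinase bound to gp130, moved in opposite directions in DU145, at 9.98, 9.89 and 9.87 with Stat3 siRNA and 9.37, 9.21 and 9.37 with Stat5a/b siRNA, against 9.61, 9.58 and 9.62 with scramble siRNA. The rise was 0.31 with Stat3 siRNA (adjusted p = 0.00261), the Stat5a/b siRNA lowered it by 0.29 (-0.29, adjusted p = 0.00252), and in CWR22Rv1 neither change was called. Between scramble groups JAK1 was at 5.77% of DU145 in CWR22Rv1 (-4.12, adjusted p = 6.78e-18). JAK1 averaged 5.49 in the CWR22Rv1 scramble arrays, below the median probe set (5.66), and how far it lies above background there is unknown. STAT3 itself was also lower there (-3.62, adjusted p = 1.99e-15), at 7.40, 7.21 and 7.24 in CWR22Rv1 against 10.91, 10.96 and 10.82 in DU145.

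Among 8 measured kinases, adaptors and STAT genes, 2 rose and STAT3 fell with Stat3 siRNA in DU145, the second to rise being PTPN11, a phosphatase that links gp130 to MAP kinase signalling and is named after its values were seen (0.23, adjusted p = 0.0243). Of all genes 7.51% rose and 8.25% fell in that comparison. With Stat5a/b siRNA in DU145, the kinase TYK2 also fell (-0.27, adjusted p = 0.00994) and the adaptor GAB1 rose (0.33, adjusted p = 0.0118). Of the 8, 6 were lower and 1 higher in CWR22Rv1 than in DU145 scramble arrays, where 27% and 30% of all genes were. Of 5 genes that restrain the pathway, 2 fell with each siRNA in DU145, where 8.25% (Stat3) and 12.5% (Stat5a/b) of all genes fell, and none was called in CWR22Rv1, where 4.77% and 6.46% were. They were the phosphatase gene PTPN6 (-0.50 with Stat3 and -0.62 with Stat5a/b siRNA, adjusted p = 0.000598 and 5.72e-05) and PIAS3, an inhibitor of STAT3 (-0.28 and -0.41, adjusted p = 0.0061 and 0.000205).

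Soluble IL-6 receptor is released when membrane proteases cut it, and 4 genes of this step were measured. ADAM17, the main sheddase after stimulation, rose by 0.38 with Stat3 siRNA in DU145 (adjusted p = 0.000987), by 0.32 with Stat3 siRNA in CWR22Rv1 (adjusted p = 0.0115) and by 0.36 with Stat5a/b siRNA in CWR22Rv1 (adjusted p = 0.0038). With Stat5a/b siRNA in DU145 it changed by 0.021 (adjusted p = 0.864). There ADAM10, another sheddase, fell (-0.35, adjusted p = 0.00045), as did RHBDF2, a cofactor that matures ADAM17 (-0.55, adjusted p = 0.000785). All 4 genes were lower with Stat5a/b siRNA than with Stat3 siRNA in DU145, where 11.2% of all genes were lower, and in CWR22Rv1 none was called in that comparison, where 10.8% were.

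Of 11 measured genes known to respond to gp130 signalling, Stat3 siRNA raised 1 and lowered 1 in DU145, Stat5a/b siRNA raised 2 and lowered 1 there, and each siRNA raised 1 in CWR22Rv1. The shares of all genes called were 15.8% and 24.3% in DU145 and 4.77% and 6.46% in CWR22Rv1, so the list's counts lay near them. JUNB, an AP-1 subunit, rose with Stat3 siRNA (0.34, adjusted p = 0.0128) and Stat5a/b siRNA (0.53, adjusted p = 0.000353) in DU145 and with Stat5a/b siRNA in CWR22Rv1 (0.33, adjusted p = 0.0342). The fibrinogen gene FGB fell with Stat3 siRNA in DU145 (-0.66, adjusted p = 0.013) and the haptoglobin gene HP with Stat5a/b siRNA there (-0.32, adjusted p = 0.0191). FOS, the other AP-1 subunit, rose in DU145 with Stat5a/b siRNA (0.57, adjusted p = 0.0163) and with Stat3 siRNA in CWR22Rv1 (0.59, adjusted p = 0.0477). In DU145 scramble arrays FGB, HP and FOS averaged 4.66, 4.85 and 4.10, and FOS averaged 5.20 in CWR22Rv1 scramble arrays. These levels lie below the median probe set (5.66), and how far they lie above background is unknown. SERPINA3, LBP, FGA, FGG, CRP and A2M averaged 3.40 to 5.07 in DU145 and 3.21 to 5.32 in CWR22Rv1 scramble arrays, also below that median. The list's counts therefore say little about gp130 output.

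**Figure D4:**
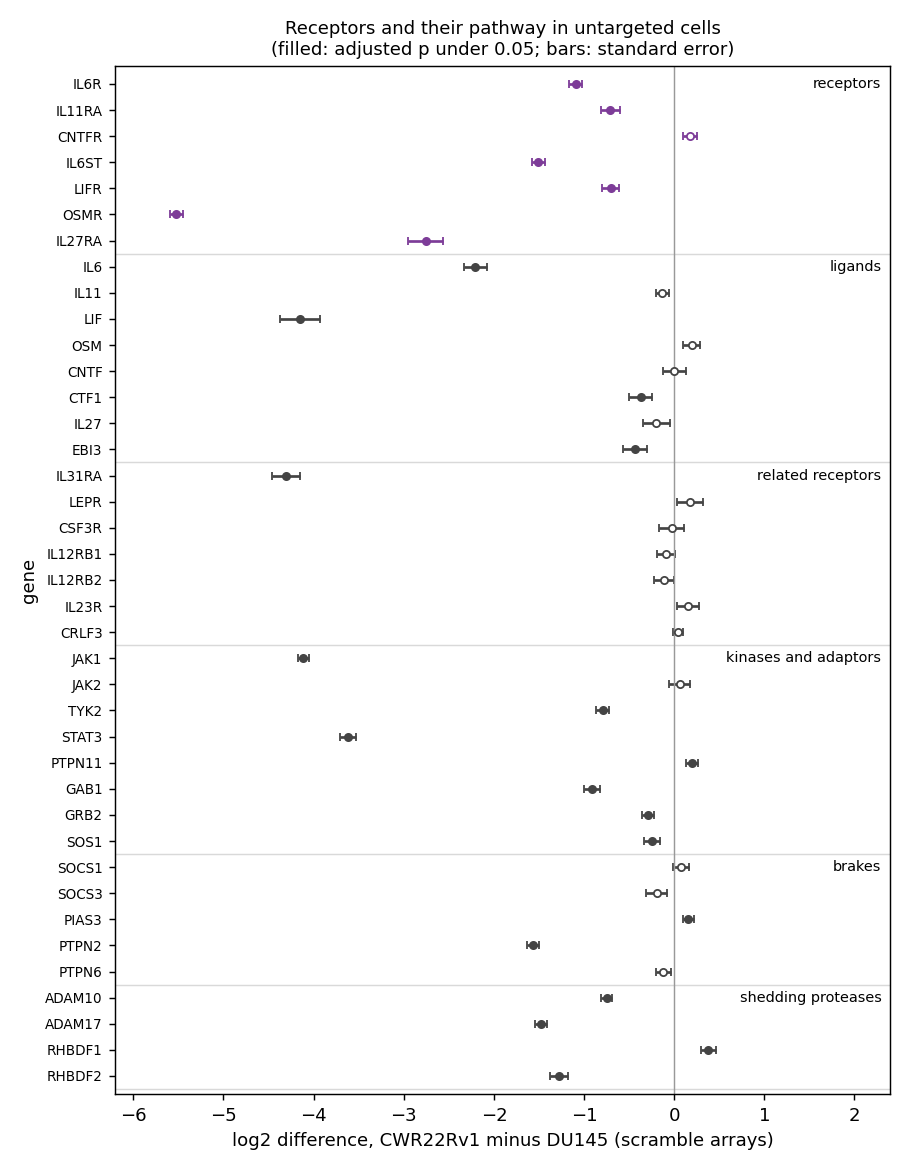
Log2 difference of receptor and pathway genes, CWR22Rv1 minus DU145 scramble arrays, with standard errors, where filled points have an adjusted p under 0.05. OSMR at -5.52 lies farthest left, and IL31RA, LIF, JAK1 and STAT3 lie below -3.

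Genes whose pattern was most like that of IL6R were sought over the 18 arrays, each line centred on its own mean, by the root mean square difference on the log2 scale. ELMOD1 was nearest at 0.127, followed by ANXA1 at 0.167 and TTPAL at 0.184, where IL6R itself departed from its line means by 0.385. ELMOD1 changed by 0.76 and 0.91 in DU145 with Stat3 and Stat5a/b siRNA and by 0.24 and 0.73 in CWR22Rv1. For LIFR the nearest were RWDD4 at 0.116, FUNDC1 at 0.127 and RALGAPA1 at 0.132, where LIFR itself departed by 0.414. RWDD4 changed by -1.16 and -0.088 in DU145 and by -0.69 and 0.10 in CWR22Rv1.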

How the data were processed

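The deposited values are log2 expression per probe set, for which RMA and limma are named, with no version or role, per the submitters' processing notes. RMA corrects background, quantile-normalises and summarises probes. Detection calls were not used, so how far a value lies above background is unknown. Control probe sets were left out, and 41091 of 54675 probe sets with 1 symbol gave 19775 genes. Symbols were checked against RefSeq of GRCh38.p14. Each gene was read from its probe set with the highest mean over 18 arrays.

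One model with a mean for each group was fitted by limma 3.58.1 in R 4.3.3, using lmFit and eBayes. It had 12 residual degrees of freedom and a prior worth 3.82. P-values are two-sided, were adjusted across all genes by Benjamini and Hochberg's method, and were called under 0.05. Standard errors pool the spread of 6 groups. The median gene SD was 0.112 to 0.126 in DU145 and 0.0724 to 0.0824 in CWR22Rv1 groups, so pooling understates the error for DU145 and overstates it for CWR22Rv1. All probe sets were also fitted together. Deviations from group means of same-numbered arrays correlated at 0.16 to 0.33 between DU145 scramble and Stat3 siRNA, where the replicate numbers were taken to pair the arrays. The reported model left this pairing out, and only the alternative with a replicate block used it. In the other comparisons within a line not every pair passed 0.1. Same-numbered arrays gave 0.012 to 0.33 in DU145 and -0.067 to 0.14 in CWR22Rv1, and differently numbered arrays -0.24 to 0.055 and -0.10 to 0.11. The number of arrays limits the precision, and the script was tested on simulated data.

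Genes named are the 7 receptors, the siRNA targets, up to 4 genes per pathway list called with an siRNA, and the 3 genes nearest to a receptor that changed by 0.5 or more. IL6, PTPN11 and the antisense transcripts were added after their values were seen. The receptors, lists and the promoter motif were chosen with earlier results of these data known. Alternatives tried were the mean of a gene's probe sets, quantile and cyclic loess normalisation, a replicate block, a filter at the median, a variance trend, array weights, all probe sets, one line alone and each array left out.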

Additional observations from a re-analysis of the deposited data

Results flagged for a closer look

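The effect of an siRNA differed between the lines, CWR22Rv1 minus DU145, for 3 receptor genes by limma's test of the difference itself. IL6R differed by -0.63 (adjusted p = 0.00301) and LIFR by 0.59 (adjusted p = 0.0251) with Stat3 siRNA. OSMR differed by 0.37 (adjusted p = 0.0217) with Stat5a/b siRNA. The LIFR call was lost without any 1 of 7 of the 12 arrays, with quantile normalisation and on the mean of the probe sets (adjusted p = 0.174). The OSMR call was lost without any 1 of 3 of the 12 arrays and on the mean of the probe sets (adjusted p = 0.559). Only the IL6R call was kept in every alternative tried. The groups held 3 arrays each, so no search for single outlying arrays was made.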

How the results depend on the processing

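Over all alternatives, 943 of 1001 gene values kept their side of the threshold with no called value turning (36 of them were uncalled and changed sign), 34 lost a call, 23 gained one and 1 reversed, OSMR for Stat5a/b against Stat3 siRNA in CWR22Rv1 on the mean of its probe sets (-0.020). With the mean of all probe sets, the receptor genes called were 0 for Stat3 siRNA in CWR22Rv1, 2 for Stat5a/b against Stat3 siRNA in CWR22Rv1, 1 for the line difference of Stat3 siRNA and 0 for that of Stat5a/b siRNA. With array weights they were 4 for Stat3 siRNA and 3 for Stat5a/b siRNA in CWR22Rv1, and 2 for the line difference of Stat5a/b siRNA. Over all genes, array weights called 2980 (944 in the reported fit) for Stat3 siRNA, 2644 (1277) for Stat5a/b siRNA and 4135 (2126) for Stat5a/b against Stat3 siRNA in CWR22Rv1, and 3584 (2357) for the line difference of Stat5a/b siRNA. With arrays of one line only, the receptor counts were 1 for Stat5a/b siRNA in DU145 and 2 in CWR22Rv1. Over all genes one line alone called 1549 (3117) for Stat3 siRNA, 2877 (4805) for Stat5a/b siRNA and 2379 (4379) between the siRNAs in DU145, and 2059 (944), 2372 (1277) and 3775 (2126) in CWR22Rv1. The line difference of Stat3 siRNA, called for 593 genes, was called for 898 with a trend, 903 with a replicate block, 922 above the median and 378 among all probe sets. A mean-variance trend gave 2 for Stat5a/b siRNA in CWR22Rv1 and 2 for its line difference. Testing all probe sets gave 1 for Stat3 siRNA in CWR22Rv1, quantile normalisation gave 1 for the line difference of Stat3 siRNA, and keeping genes above the median gave 2 for that of Stat5a/b siRNA. The causes of these shifts were not tested. With the replicate number as a block, IL11RA passed the test for Stat3 siRNA in DU145 (adjusted p = 0.0433), where the numbers were taken to pair the arrays, and for the line difference of Stat5a/b siRNA (adjusted p = 0.0242, 2 receptor genes called), and CNTFR lost its call (adjusted p = 0.061). No other receptor call changed. Leaving out 1 array gave in DU145 2 to 3 receptor genes with Stat3 siRNA and 2 to 3 with Stat5a/b siRNA, and 1 with either siRNA in CWR22Rv1. Between the siRNAs it gave 2 in DU145 and 3 to 4 in CWR22Rv1, for the line differences 1 to 2 (Stat3) and 0 to 2 (Stat5a/b), and 6 to 7 between the scramble groups. Over all genes it called 448 to 547 (944 in the reported fit) for Stat3 siRNA, 718 to 844 (1277) for Stat5a/b siRNA and 1388 to 1640 (2126) between the siRNAs in CWR22Rv1, and 292 to 780 (593) for the line difference of Stat3 siRNA. The other 5 comparisons stayed within 1.5 times.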

Other observations

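An antisense transcript, IL6R-AS1, overlaps the IL6R start on chromosome 1 (154402321 to 154406564, GRCh38.p14) and had a probe set of its own. It was chosen after its values were seen. The transcript rose with Stat3 siRNA in DU145 (0.42 ± 0.089, limma adjusted p = 0.00353). The change was 0.20 for Stat5a/b siRNA in that line (adjusted p = 0.126), 0.0098 with Stat3 siRNA in CWR22Rv1 (adjusted p = 0.981) and 0.18 with Stat5a/b siRNA in CWR22Rv1 (adjusted p = 0.314). Between the scramble groups, CWR22Rv1 minus DU145, it differed by -0.0037 (adjusted p = 0.977), where IL6R differed by -1.09. Divergent and antisense transcripts at IL6ST and CNTFR were called with neither siRNA in either line.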
